A study of Mus musculus with 11 samples.

Results

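The collagen genes were described in mouse lung on 11 one-colour expression arrays. A gene was taken as a collagen where the array's own gene name read Col, a number, the letter a and a number, and it was kept where a probe lay well above background on at least 2 arrays. The rule found 40 genes with 78 probes, of which 38 genes with 67 probes were kept among 21872 genes kept in all. Col10a1 and Col28a1 were each well above background on 1 array and were not kept, so 2 is the fewest arrays inside the limit (Col9a1) and 1 the most outside it. Of the 38 genes, 35 were well above background on all 11 arrays, Col24a1 on 10, Col19a1 on 3 and Col9a1 on 2. By collagen type, 11 genes were placed among the fibrillar collagens, 9 in the basement membrane and its zone (types IV, VII, XV and XVIII) and 18 among all other types.

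The arrays measured total lung RNA of Foxa3 knockout (Foxa3-/-) mice and of their littermate controls, called wild type here, challenged with OVA, which is the usual short name of ovalbumin, or with saline. Wild type with saline, wild type with OVA and knockout with OVA held 3 arrays each, and knockout with saline held 2. The labels give no age, strain or dose, do not say which part of Foxa3 was deleted in the knockout or whether each array is 1 animal, and p-values therefore measure the spread between these samples, which may be technical. The arrays lay on 3 slides, of which slides 1 and 2 held an array of every group and slide 3 lacked a knockout saline array. The probe of Foxa3, a forkhead transcription factor of endoderm-derived epithelia, passed the scanner software's background test on all 6 arrays of wild-type lung and on 0 of the 5 of knockout lung. Between 71.1% and 78.9% of probes were well above background on an array. All 10 alveolar epithelial markers listed were well above background on every array.

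Collagens are built from 3 chains wound into a triple helix, in which glycine recurs at a fixed, short interval. Fibrillar collagens assemble into the tensile fibrils of the interstitium, and type IV forms the sheet of basement membranes between epithelium, endothelium and stroma. Among the remaining types are some that coat fibrils, form beaded filaments or span the cell membrane. In the airways, deposition of interstitial collagen below the epithelium is a known feature of allergic remodelling. In bulk tissue fewer cells of a type and less RNA per cell cannot be told apart.

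The glycine repeat could be read from the arrays themselves. Of the 41174 probes that were not controls, 3 carried a glycine codon (GGN) every 9 bases over their whole 60 bases with at least 6 such codons in register, and all 3 were collagen probes, of 78 named by the rule. They are shown 5′ to 3′ with the glycine codons in capitals, to show what the triple helix looks like in coding sequence.
Col11a2: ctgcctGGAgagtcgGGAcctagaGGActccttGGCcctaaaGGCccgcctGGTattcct
Col5a1: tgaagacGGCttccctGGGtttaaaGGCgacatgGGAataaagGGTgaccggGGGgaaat
Col5a3: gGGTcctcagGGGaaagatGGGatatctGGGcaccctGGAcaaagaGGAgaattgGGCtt
In the file's mouse build mm7 the Col11a2 probe lies at chr17:32131401-32131567 on the plus strand, the Col5a1 probe at chr2:27994034-27996457 on the plus strand and the Col5a3 probe at chr9:20655471-20656200 on the minus strand. The spans of 167, 2424 and 730 bases are longer than the 60 bases of a probe, so each probe joins sequence that is split in the genome. None of the 3 was the brightest probe of its gene, and the brightest probe represents each gene in what follows.

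Values below are scaled log2 levels, that is log2 intensity minus the array's 75th percentile of log2 intensity, so that 0 is the level of a probe at that percentile. They compare arrays for 1 probe and do not rank genes. Differences are on the log2 scale, ± marks the standard error, and the adjusted p comes from limma (two-sided), after Benjamini-Hochberg adjustment over all 21872 genes. A gene is said to have risen or fallen where adjusted p was under 0.05.

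After OVA, 6 of 11 fibrillar collagen genes rose in wild type and 7 in knockout, and no type IV chain rose in either. With slide as a block the fibrillar rises were 6 and 3, and those of all collagen genes 9 and 6 with 1 and 0 falls. In wild type 10 of 38 collagen genes rose (26.3%) and 3 fell (7.89%), against 10.9% and 7.91% of all genes tested. The authors' value table split these calls as 8 and 4. In knockout 12 rose (31.6%) and 1 fell (2.63%), against 6.45% and 1.78% of all genes. An unadjusted p under 0.05 was found for 22 and 20 collagen genes, against 36.5% and 30.3% of all genes. The OVA arrays lay entirely above the saline arrays for 15 collagen genes in wild type and below them for 9, where all genes gave 22.2% and 20.5%, and in knockout the counts were 16 and 10, where all genes gave 24.5% and 24.4%. Fibrillar genes gave 6 of the 10 rises in wild type and 7 of the 12 in knockout, basement membrane genes gave 2 and 2, and the other types gave 2 and 3. Without the 4 arrays of slide 1 no collagen gene was called in either comparison, and all genes fell to 43 and 13 calls. The median difference was 0.72 in wild type and 0.76 in knockout for the 11 fibrillar genes, -0.17 and -0.22 for the 9 basement membrane genes and -0.10 and 0.01 for the 18 others, beside 0.017 and -0.0085 for all genes. The sign of the medians of the other types depended on the setting, with 0.11 and -0.11 under normexp background correction.

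**Figure D1:**
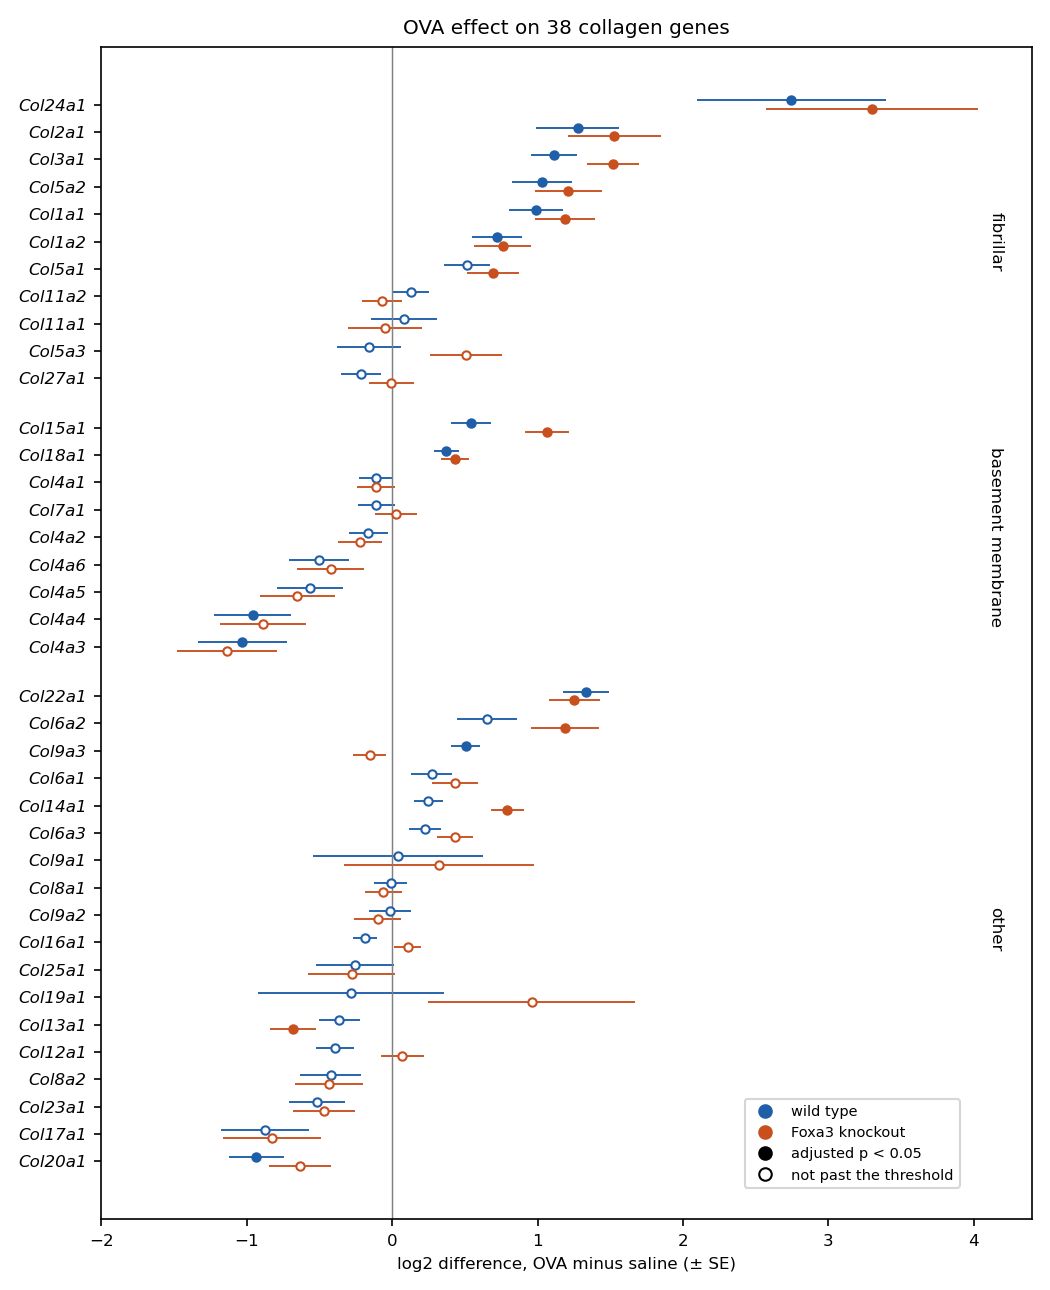
The plot gives, for each of the 38 collagen genes (vertical axis, grouped by class), the log2 difference between OVA and saline arrays (horizontal axis), with bars of 1 standard error. Blue points are wild type (3 against 3 arrays), orange points Foxa3 knockout (3 against 2), and filled points have adjusted p under 0.05. The filled points of the fibrillar class all lie above 0, and the 6 type IV genes all lie below 0 in both genotypes.

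Col3a1 encodes the chain of type III collagen, which forms the fine fibrils of distensible tissue such as lung and vessel wall. Its scaled log2 level was 4.58, 4.48 and 4.59 on the wild-type saline arrays and 5.41, 6.0 and 5.57 on the wild-type OVA arrays. It was 3.92 and 4.14 on the knockout saline arrays and 5.66, 5.37 and 5.61 on the knockout OVA arrays. All 6 OVA arrays lay above all 5 saline arrays. Col3a1 rose by 1.11 ± 0.16 in wild type (2.16-fold, adjusted p = 0.00426) and by 1.52 ± 0.18 in knockout (2.86-fold, adjusted p = 0.00371). Within slides 1, 2 and 3 the wild-type difference was 0.99, 0.93 and 1.41, and within slides 1 and 2 the knockout difference was 1.52 and 1.69. Both calls held with 1 array left out, except in knockout without knockout saline 1 (adjusted p = 0.0522).

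Col1a1 and Col1a2 encode the chains of type I collagen, the main fibril of scar and adventitia. The level of Col1a1 was 4.49, 4.42 and 4.58 in wild-type saline and 5.15, 5.80 and 5.51 in wild-type OVA, and 4.07 and 4.42 in knockout saline and 5.58, 5.18 and 5.53 in knockout OVA. OVA and saline arrays did not overlap in either genotype. Col1a1 rose by 0.99 ± 0.18 in wild type (1.99-fold, adjusted p = 0.0113) and by 1.19 ± 0.21 in knockout (2.28-fold, adjusted p = 0.0122), the latter lost without knockout saline 1 (adjusted p = 0.126) or knockout OVA 3 (0.0503). The level of Col1a2 was 5.21, 5.19 and 5.23 in wild-type saline, 5.77, 6.12 and 5.90 in wild-type OVA, 4.74 and 4.88 in knockout saline and 5.75, 5.15 and 5.81 in knockout OVA. The OVA arrays lay above the saline arrays of their genotype, and knockout OVA 2 lay lowest among the OVA arrays. Col1a2 rose by 0.72 ± 0.17 (adjusted p = 0.0259) and by 0.76 ± 0.19 (adjusted p = 0.047), and with slide as a block the knockout call was lost (adjusted p = 0.0888). The Col1a2 calls held with 1 array left out in 6 and 3 of 11 fits, with adjusted p up to 0.0969 (without wild-type OVA 2) and 0.225 (without knockout saline 1). The 2 other probes of Col1a1 that were kept gave 1.05 and 1.14 in wild type and 1.38 and 1.57 in knockout, all past the threshold. That of Col1a2, well above background on 8 arrays, gave 0.92 and 1.26 (limma adjusted p = 0.0897 and 0.0742).

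Col3a1 and Col1a2 both rose after OVA in both genotypes, as other fibrillar genes did, and whether they moved together was not tested. The 250 bases before the start of each of these 2 genes are shown from RefSeq (GRCm38.p6, both plus strand), Col3a1 from chr1:45311288-45311537 and Col1a2 from chr6:4505368-4505617. Capitals mark matches to the letters of the TATA box (TATAAA), the CCAAT box (CCAAT) and the GC box (GGGCGG), searched on both strands. No match overlaps another here, and the TATAAA of Col3a1 begins at position -117 from the gene's start.
Col3a1: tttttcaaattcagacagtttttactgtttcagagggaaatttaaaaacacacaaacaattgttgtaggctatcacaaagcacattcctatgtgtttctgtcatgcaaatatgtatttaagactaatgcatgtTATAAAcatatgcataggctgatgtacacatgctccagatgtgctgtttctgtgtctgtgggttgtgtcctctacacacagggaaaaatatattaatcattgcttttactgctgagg
Col1a2: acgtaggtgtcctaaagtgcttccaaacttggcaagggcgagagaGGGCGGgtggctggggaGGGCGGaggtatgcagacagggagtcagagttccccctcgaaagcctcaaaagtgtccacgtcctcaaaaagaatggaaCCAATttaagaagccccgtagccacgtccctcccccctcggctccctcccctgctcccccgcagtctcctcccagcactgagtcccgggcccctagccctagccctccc
The 2 windows share none of these letters: Col3a1 held TATAAA, and Col1a2 held CCAAT and GGGCGG. RefSeq windows of 300 bases were matched for 30 of the 38 collagen genes (33 windows). TATAAA stood in 12.1% of the collagen windows and in 13.6% of all 32851 windows, CCAAT in 36.4% and 37.4%, and GGGCGG in 60.6% and 35.7%. These are matches of letters and not sites of binding.

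Type V collagen copolymerises with type I and limits the width of its fibrils. Col5a2, the next coding gene to Col3a1 on chromosome 1, had levels of 0.71, 0.61 and 0.78 in wild-type saline and 1.53, 2.12 and 1.56 in wild-type OVA, and of 0.27 and 0.29 in knockout saline and 1.60, 1.08 and 1.78 in knockout OVA. Every OVA array lay above every saline array. Col5a2 rose by 1.03 ± 0.21 (2.05-fold, adjusted p = 0.0144) in wild type, with adjusted p = 0.0564 without wild-type saline 2. In knockout it rose by 1.21 ± 0.23 (2.31-fold, adjusted p = 0.018), and adjusted p was 0.0569 with slide as a block and up to 0.13 (without knockout saline 1) with 1 array left out, where 7 of 11 fits kept the call. Col5a1 differed by 0.51 ± 0.16 in wild type (adjusted p = 0.0525) and rose by 0.69 ± 0.18 in knockout (adjusted p = 0.0475), a call lost with slide as a block (adjusted p = 0.104) and in 8 of 11 fits with 1 array left out (up to 0.212, without knockout saline 1). The other kept probe of Col5a1 gave 0.14 in wild type and 0.48 in knockout (limma adjusted p = 0.692 and 0.241). Col5a3 differed by -0.16 ± 0.22 in wild type and 0.51 ± 0.25 in knockout and passed the test in neither (adjusted p = 0.648 and 0.202).

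**Figure D2:**
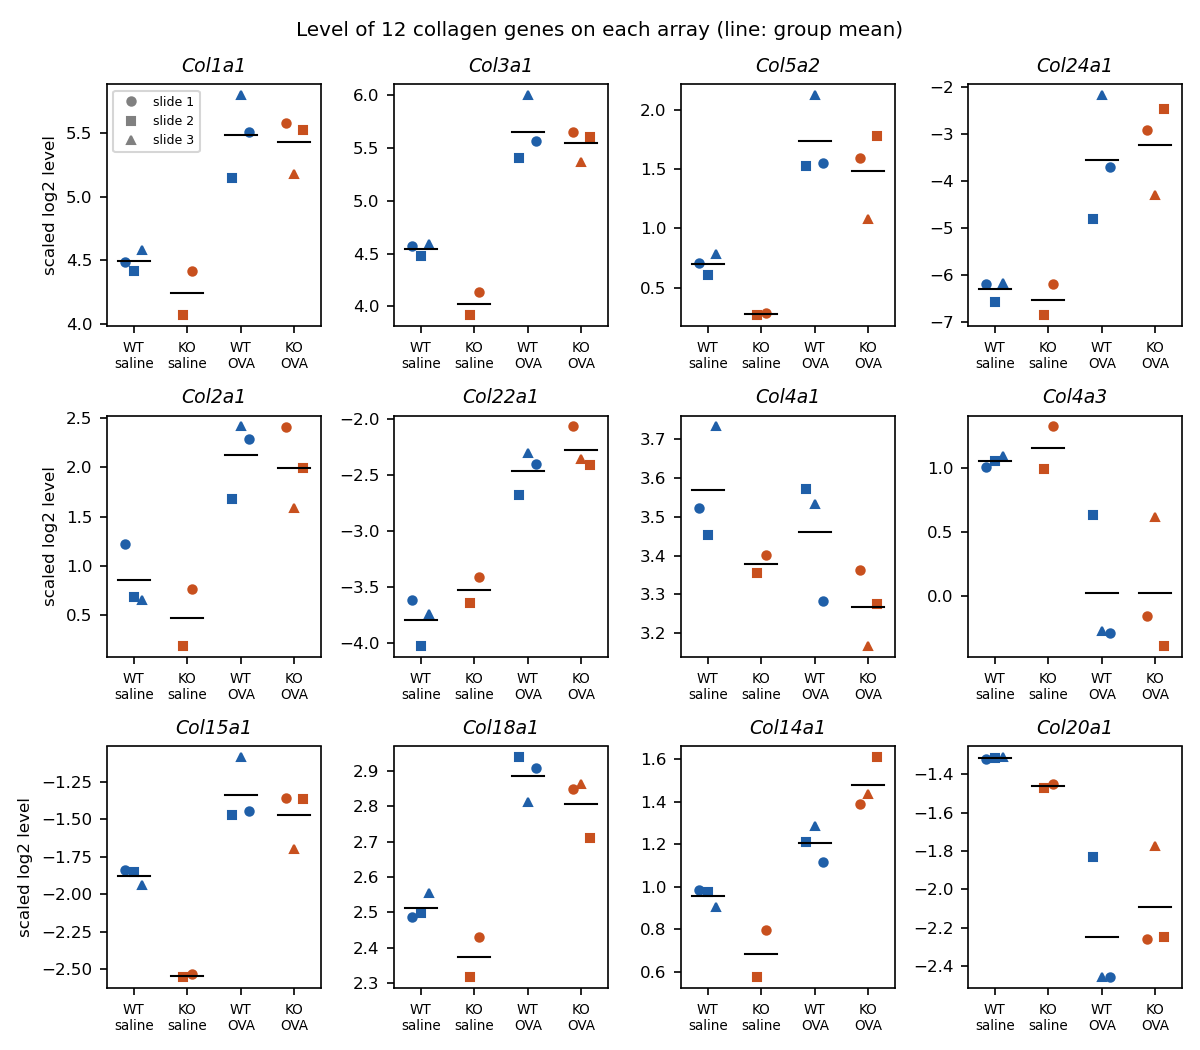
Each panel gives the scaled log2 level (vertical axis, own range per panel) of 1 collagen gene on the 11 arrays by group (horizontal axis). Points are arrays, shaped by slide, and lines are group means. The OVA arrays of Col3a1 (5.37 to 6.0) all lie above its saline arrays (3.92 to 4.59), while those of Col4a1 (3.17 to 3.57) overlap its saline arrays (3.36 to 3.73).

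The fibrillar collagens known mainly from cartilage and bone gave calls for some members only. Col2a1, the type II chain of cartilage, had levels of 1.22, 0.68 and 0.65 in wild-type saline, 1.68, 2.42 and 2.29 in wild-type OVA, 0.18 and 0.76 in knockout saline and 2.41, 1.58 and 2.00 in knockout OVA. All OVA arrays lay above all saline arrays. Col2a1 rose by 1.28 ± 0.29 (2.42-fold, adjusted p = 0.0206) and by 1.53 ± 0.32 (2.88-fold, adjusted p = 0.0257), and its second kept probe gave 0.63 (adjusted p = 0.02) and 0.31 (adjusted p = 0.217). The call held in 7 of 11 fits with 1 array left out in each genotype, and adjusted p reached 0.0806 in wild type (without OVA 2) and 0.189 in knockout (without saline 1). In the authors' table both calls were lost, at 1.21 in wild type (adjusted p = 0.0761) and 0.71 in knockout (adjusted p = 0.37). With the mean of both probes the knockout value was 0.92 (adjusted p = 0.0402).

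Col24a1, a minor fibrillar chain known from bone, had levels of -6.18, -6.58 and -6.17 in wild-type saline, -4.81, -2.18 and -3.70 in wild-type OVA, -6.86 and -6.20 in knockout saline and -2.92, -4.30 and -2.47 in knockout OVA. Its OVA arrays lay above its saline arrays by a wide and uneven margin, and 1 knockout saline array was not well above background. Col24a1 rose by 2.75 ± 0.65 (adjusted p = 0.0246) and by 3.30 ± 0.73 (adjusted p = 0.0309), the latter with adjusted p = 0.0754 with slide as a block. Its other kept probe was well above background on only 5 arrays and is given no fold. With normexp the difference was 1.28 in wild type (adjusted p = 0.0234) and 1.21 in knockout, where the call was lost (0.0663). Both calls were lost in the authors' table (1.07 and 1.33, adjusted p = 0.0718 and 0.0676) and with the mean of both probes (1.89 and 2.06, adjusted p = 0.0769 and 0.109). With 1 array left out the call held in 6 and 4 of 11 fits, with adjusted p up to 0.082 (without wild-type saline 2) and 0.191 (without knockout saline 1).

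Col11a1 and Col11a2, which pair with type II in cartilage, differed by 0.08 ± 0.23 and 0.13 ± 0.12 in wild type and by -0.05 ± 0.25 and -0.07 ± 0.14 in knockout, and neither passed the test. Col27a1 differed by -0.21 ± 0.14 and -0.01 ± 0.15 and did not pass either, while a dimmer kept probe of it gave 0.42 and 0.98 (adjusted p = 0.237 and 0.0569). Of 12 cartilage markers 8 were kept, of which 2 rose in wild type and 3 in knockout, against 10.9% and 6.45% of all genes. The median difference of the 8 was 0.19 and 0.30, and 3 of them had an unadjusted limma p under 0.05 in each genotype. Sox9, a transcription factor of chondrocytes and airway progenitors, rose by 2.12 and 3.02, and Ucma rose by 3.74 and 3.90. Comp, a cartilage matrix glycoprotein, rose by 1.45 in knockout (adjusted p = 0.0321) and differed by 0.87 in wild type (adjusted p = 0.0644). Acan differed by -0.05 and -0.35, and Matn1, Matn3, Hapln1 and Cnmd were not well above background on 2 arrays. With slide as a block adjusted p was 0.0719 and 0.0797 for Sox9, 0.0255 and 0.0526 for Ucma and 0.0821 for Comp in knockout, so that 1 and 0 cartilage markers were called. The summed level of the 7 cartilage markers with a value on every array (Chad lacked 1), in units of the array's 75th percentile, ran from 3.26 to 5.29 over saline arrays and from 4.31 to 5.71 over OVA arrays, and its part in the result for Col2a1 was not tested.

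Type IV collagen had no gene that rose. All 6 of its chains gave a negative difference in both genotypes, with medians of -0.53 in wild type and -0.54 in knockout, but 2 passed limma's test in wild type and 0 in knockout, where 3 had an unadjusted p under 0.05. Col4a1, which with Col4a2 forms the main network of all basement membranes, had levels of 3.52, 3.45 and 3.73 in wild-type saline and 3.57, 3.53 and 3.28 in wild-type OVA, and of 3.36 and 3.4 in knockout saline and 3.36, 3.17 and 3.28 in knockout OVA. The groups overlapped in both genotypes. Its difference was -0.11 ± 0.12 (95% interval -0.37 to 0.16, adjusted p = 0.548) and -0.11 ± 0.13 (-0.41 to 0.18, adjusted p = 0.617). Both intervals span 0.

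Col4a2 lies head to head with Col4a1 on chromosome 8. Its levels were 3.99, 3.91 and 4.31 in wild-type saline, 4.07, 3.94 and 3.70 in wild-type OVA, 3.71 and 3.86 in knockout saline and 3.58, 3.51 and 3.60 in knockout OVA. The wild-type groups overlapped, and the knockout OVA arrays lay below the knockout saline arrays. It differed by -0.17 ± 0.13 (adjusted p = 0.412) and -0.22 ± 0.15 (adjusted p = 0.361).

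The neighbouring chains Col4a3 and Col4a4, which with Col4a5 form the network of the alveolar and glomerular basement membranes, were the type IV chains that fell. Col4a3 had levels of 1.01, 1.05 and 1.09 in wild-type saline and 0.63, -0.28 and -0.29 in wild-type OVA, and of 0.99 and 1.32 in knockout saline and -0.16, 0.61 and -0.40 in knockout OVA. Every OVA array lay below every saline array, with wild-type OVA 1 and knockout OVA 2 nearest to them. Col4a3 fell by 1.03 ± 0.31 on the log2 scale in wild type (adjusted p = 0.0466) and differed by -1.13 ± 0.34 in knockout (adjusted p = 0.0701). Col4a4 fell by 0.96 ± 0.26 in wild type (adjusted p = 0.0382) and differed by -0.89 ± 0.30 in knockout (adjusted p = 0.0892). With slide as a block adjusted p was 0.0739 and 0.0669 in wild type, so both calls were lost there. With 1 array left out, each kept its call in 3 of 11 fits, and adjusted p reached 0.158 and 0.132 (without wild-type OVA 2). The second kept probe of Col4a3 gave -1.07 (adjusted p = 0.0446) and that of Col4a4 gave -0.15 (adjusted p = 0.412), so that the mean of the Col4a4 probes was -0.55. The knockout value of Col4a3 passed the test without wild-type OVA 1 (adjusted p = 0.031) or knockout OVA 2 (0.024), with normexp (0.0392), a trended robust prior (0.0424) or array weights (0.0307), and in the authors' table (0.0362).

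Col4a5 and Col4a6, neighbours on the X chromosome, differed by -0.56 ± 0.23 and -0.50 ± 0.21 in wild type and by -0.65 ± 0.25 and -0.42 ± 0.23 in knockout, and neither passed the test. Beside the type IV chains, 5 of 11 endothelial markers fell in wild type (median difference -0.59) and 1 in knockout (median -0.50), or 3 and 0 with slide as a block. The summed endothelial level ran from 228 to 261 over wild-type saline, 238 to 245 over knockout saline, 161 to 222 over wild-type OVA and 166 to 201 over knockout OVA arrays. Alveolar epithelial markers had medians of -0.34 and -0.42, with 1 of 10 and 0 of 10 fallen, or 0 and 0 with slide as a block. Their summed level ran from 580.3 to 622 and 698 to 795 over saline arrays of wild type and knockout, and from 616 to 798 and 608 to 689 over their OVA arrays. The part of either cell type in the type IV values was not tested.

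The multiplexins Col15a1 and Col18a1, which sit at the outer face of basement membranes and whose ends can be released as endostatin-like fragments, rose where type IV did not. Col15a1 had levels of -1.84, -1.85 and -1.94 in wild-type saline and -1.47, -1.09 and -1.45 in wild-type OVA, and of -2.56 and -2.53 in knockout saline and -1.36, -1.70 and -1.37 in knockout OVA. OVA arrays lay above saline arrays throughout, and the knockout saline arrays lay below all the others. Col15a1 rose by 0.54 ± 0.14 (1.46-fold, adjusted p = 0.0284) and by 1.07 ± 0.15 (2.10-fold, adjusted p = 0.00619). With slide as a block the wild-type call was lost (adjusted p = 0.0565), as it was with median scaling (0.0515). With the mean of its probes, of which the second was well above background on 2 arrays, both calls were lost (0.47, adjusted p = 0.326, and 1.02, adjusted p = 0.102). With 1 array left out the call held in 6 of 11 fits in wild type (adjusted p up to 0.0931, without OVA 2) and in 10 of 11 in knockout (0.0693 without saline 1).

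Col18a1 had levels of 2.49, 2.50 and 2.55 in wild-type saline, 2.94, 2.81 and 2.91 in wild-type OVA, 2.32 and 2.43 in knockout saline and 2.85, 2.86 and 2.71 in knockout OVA. All OVA arrays lay above all saline arrays. Col18a1 rose by 0.37 ± 0.09 (1.29-fold, adjusted p = 0.0235) and by 0.43 ± 0.10 (1.35-fold, adjusted p = 0.0322), the latter lost with slide as a block (adjusted p = 0.0795). With 1 array left out the calls held in 6 and 3 of 11 fits, with adjusted p up to 0.0835 (without wild-type OVA 3) and 0.206 (without knockout saline 1). The other kept probe of Col18a1 gave 0.26 in wild type and 0.42 in knockout (limma adjusted p = 0.107 and 0.0563). Col7a1, the anchoring fibril below epithelia, differed by -0.11 ± 0.13 and 0.03 ± 0.14 and passed the test in neither.

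**Figure D3:**
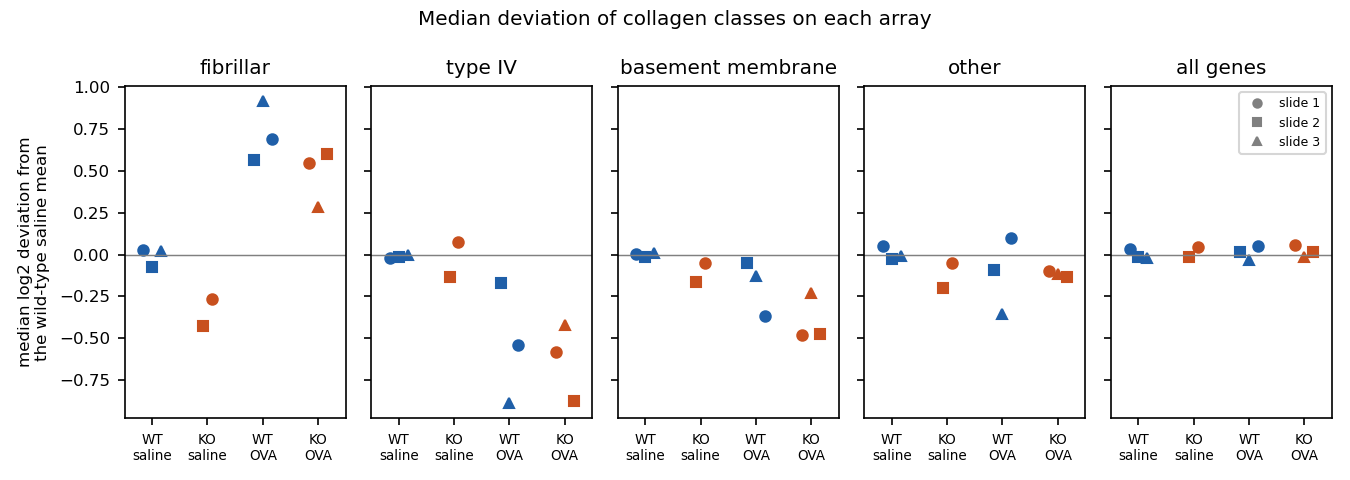
Each panel gives, for 1 set of genes, the median log2 deviation from the wild-type saline mean (vertical axis) on each of the 11 arrays by group (horizontal axis), with points shaped by slide. Fibrillar medians lie between 0.28 and 0.91 on the OVA arrays and at -0.43 and -0.26 on the knockout saline arrays, type IV medians lie between -0.89 and -0.17 on the OVA arrays, and the medians of all genes lie between -0.031 and 0.058.

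Among the other types, type VI forms beaded filaments that link cells to the interstitial matrix. Col6a2 had levels of 0.68, 0.46 and 0.73 in wild-type saline, 1.1, 1.69 and 1.05 in wild-type OVA, 0.24 and 0.20 in knockout saline and 1.56, 1.03 and 1.64 in knockout OVA. All OVA arrays lay above all saline arrays. It differed by 0.65 ± 0.21 in wild type (adjusted p = 0.0569) and rose by 1.19 ± 0.23 in knockout (2.28-fold, adjusted p = 0.02), with adjusted p = 0.0611 with slide as a block and up to 0.13 (without knockout saline 1) with 1 array left out, where 7 of 11 fits kept the call. The other kept probe of Col6a2 gave 0.37 in wild type and 0.53 in knockout (limma adjusted p = 0.103 and 0.0745). Col6a1, the neighbour of Col6a2 on chromosome 10, had levels of 2.37, 2.30 and 2.48 in wild-type saline, 2.60, 2.88 and 2.49 in wild-type OVA, 2.11 and 2.16 in knockout saline and 2.60, 2.32 and 2.77 in knockout OVA. The groups did not overlap within a genotype, although wild-type OVA 3 lay close to wild-type saline 3. It differed by 0.27 ± 0.14 (adjusted p = 0.198) and 0.43 ± 0.16 (adjusted p = 0.11, and 0.0447 without knockout OVA 2). Col6a3 differed by 0.23 ± 0.11 and 0.43 ± 0.12 and did not pass either.

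The fibril-associated collagens, which lie on the surface of fibrils, went in different directions. Col22a1, known from tissue junctions such as the muscle-tendon interface, had levels of -3.62, -4.03 and -3.74 in wild-type saline, -2.68, -2.31 and -2.40 in wild-type OVA, -3.65 and -3.42 in knockout saline and -2.07, -2.36 and -2.41 in knockout OVA. Its OVA arrays stood clear of its saline arrays in both genotypes. It rose by 1.33 ± 0.16 (2.52-fold, adjusted p = 0.00223) and by 1.25 ± 0.17 (2.38-fold, adjusted p = 0.00589), and its other kept probe gave 0.70 (adjusted p = 0.0551) and 0.88 (adjusted p = 0.0599). In the authors' table the wild-type value was 0.88. The knockout call was lost without knockout saline 1 (adjusted p = 0.0736).

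Col14a1, which tunes the diameter and packing of fibrils, had levels of 0.98, 0.98 and 0.90 in wild-type saline, 1.21, 1.28 and 1.12 in wild-type OVA, 0.57 and 0.80 in knockout saline and 1.39, 1.43 and 1.61 in knockout OVA. The 4 groups did not overlap: knockout saline was lowest and knockout OVA highest. Col14a1 rose by 0.79 ± 0.11 in knockout (1.73-fold, adjusted p = 0.00643) and differed by 0.25 ± 0.10 in wild type (adjusted p = 0.112). Without knockout saline 1 the knockout value had adjusted p = 0.0823.

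Col9a3, one chain of the type IX collagen of cartilage fibrils, had levels of -4.75, -4.77 and -4.87 in wild-type saline, -4.26, -4.41 and -4.20 in wild-type OVA, -4.83 and -4.64 in knockout saline and -4.96, -4.91 and -4.80 in knockout OVA. The wild-type OVA arrays lay above all others. It rose by 0.51 ± 0.10 in wild type (1.42-fold, adjusted p = 0.0141), with adjusted p = 0.0548 under a trended robust prior and up to 0.0605 (without wild-type OVA 3) with 1 array left out, and differed by -0.15 ± 0.11 in knockout (adjusted p = 0.389). The authors' table gave 0.22 in wild type (adjusted p = 0.0579). Its partner Col9a2 differed by -0.01 in wild type and -0.10 in knockout, and Col9a1 was well above background on 2 arrays only and is given no difference.

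Col20a1 had levels of -1.32, -1.31 and -1.31 in wild-type saline, -1.83, -2.46 and -2.46 in wild-type OVA, -1.47 and -1.45 in knockout saline and -2.26, -1.78 and -2.25 in knockout OVA. Every OVA array lay below every saline array. It fell by 0.93 ± 0.19 in wild type (adjusted p = 0.0153, and up to 0.0617, without wild-type OVA 3, with 1 array left out) and differed by -0.63 ± 0.21 in knockout (adjusted p = 0.09). Col12a1 and Col16a1 differed by -0.39 ± 0.13 and -0.19 ± 0.08 in wild type and by 0.07 ± 0.15 and 0.11 ± 0.09 in knockout, and neither passed the test.

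Of the transmembrane collagens, Col13a1, found at cell-matrix adhesions, had levels of 2.45, 2.35 and 2.28 in wild-type saline, 2.28, 1.88 and 1.83 in wild-type OVA, 2.57 and 2.66 in knockout saline and 1.97, 2.09 and 1.75 in knockout OVA. OVA arrays lay below saline arrays in both genotypes, in wild type by a small margin. It fell by 0.68 ± 0.16 on the log2 scale in knockout (adjusted p = 0.0354, 0.0872 with slide as a block, and up to 0.187, without knockout saline 2, with 1 array left out, where 4 of 11 fits kept the call) and differed by -0.36 ± 0.14 in wild type (adjusted p = 0.0981). Col17a1, the hemidesmosomal collagen of basal epithelial cells, differed by -0.87 ± 0.30 and -0.83 ± 0.34. Col23a1 differed by -0.52 ± 0.19 and -0.47 ± 0.21, while a dimmer probe of it passed the test in both genotypes (-0.70 and -1.09, adjusted p = 0.0389 and 0.0229). Col8a1, Col8a2 and Col25a1 passed no test either, with differences from -0.43 to -0.0083. Col19a1, well above background on 3 arrays, is given no difference.

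The OVA effects of the 2 genotypes rest on separate arrays, but the test took its spread from all 11 arrays, and the genotypes shared slides. Their calls are therefore not independent. Of the 13 genes called in wild type and the 13 called in knockout, 9 were called in both with the same sign, which is 69.2% of each list. For all genes with a value on every array, 37.5% of the wild-type list and 85.4% of the knockout list were called in both. The sign was the same in both genotypes for 30 of 38 collagen genes (78.9%) and for 81.4% of 21748 genes. The size of the response differed between arrays of a group: wild-type OVA 1 was the OVA array nearest to saline for 11 of the 13 genes called in wild type, and knockout OVA 2 for 10 of the 13 called in knockout. The same arrays were nearest for 85.0% and 77.6% of all genes called. Among genes called in wild type 12 of 12 other kept probes had the sign of the brightest probe, and 13 of 13 did in knockout, of which 5 and 4 also passed the test. A kept probe each of Col15a1, Col1a2, Col24a1 and Col3a1 in that count was not well above background on every array. Among genes not called, probes of Col27a1, Col5a3 and Col4a1 differed in sign in wild type.

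Few genes that make or bind collagen passed the test upward. Of 16 procollagen hydroxylases, chaperones and glycosyltransferases, 0 rose and 3 fell in wild type, and 0 rose and 1 fell in knockout. In wild type Colgalt2, which glycosylates hydroxylysine, fell (-1.30 ± 0.26, adjusted p = 0.0143), as did P3h3, of the prolyl hydroxylases (-0.43 ± 0.11, adjusted p = 0.0285). Plod2, the lysyl hydroxylase of telopeptides, fell in both genotypes (-0.49 ± 0.15 and -0.70 ± 0.16, adjusted p = 0.0477 and 0.0359). Both Plod2 calls were lost with slide as a block (limma adjusted p = 0.0792 and 0.085). Serpinh1, the collagen chaperone HSP47, differed by 0.26 ± 0.15 and 0.41 ± 0.16 (adjusted p = 0.229 and 0.133). P4ha3, a prolyl 4-hydroxylase subunit, differed by 1.63 ± 0.58 and 1.76 ± 0.65 (adjusted p = 0.0793 and 0.112). However, P4ha3 was well above background on only 7 arrays, with saline levels from -8.69 to -6.10, so the size of its difference is uncertain. The list's median was 0.13 and 0.065, and Serpinh1 and P4ha3 were chosen after their values were seen.

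Of 6 procollagen proteinases and enhancers kept from 8, 1 fell in wild type (Pcolce2, an enhancer of C-propeptide cleavage, -1.34 ± 0.35, adjusted p = 0.0333) and 0 passed limma's test in knockout (2 with unadjusted p under 0.05). The Pcolce2 call was lost with slide as a block (limma adjusted p = 0.0604). Of 5 lysyl oxidases, which cross-link fibrils, 0 passed in either genotype (2 and 1 with unadjusted p under 0.05). Among 10 fibril-binding proteins kept from 11, Thbs2, a matricellular protein, rose by 0.48 ± 0.12 and 0.87 ± 0.13 (adjusted p = 0.0274 and 0.00758). The small leucine-rich proteins Fmod (-0.86 ± 0.11, adjusted p = 0.00293), Aspn (-0.91 ± 0.12, adjusted p = 0.0032) and Omd fell in wild type, as did Tnxb, and Fmod and Aspn also fell in knockout (-0.58 ± 0.12 and -0.71 ± 0.13). The median of this list was -0.66 and -0.61.

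Of 10 collagen receptors, Lair1, an inhibitory receptor of leukocytes, rose in wild type (1.90 ± 0.35, adjusted p = 0.0113) and 4 fell, namely Gp6, the platelet receptor (-0.94 ± 0.16, adjusted p = 0.00823), Itga11, the type I collagen integrin of fibroblasts (-0.91 ± 0.23, adjusted p = 0.0295), Itgb1 and Ddr2. In knockout Gp6 fell (-0.76 ± 0.18, adjusted p = 0.0381) and 0 rose. Of 14 laminins, nidogens and agrin kept from 15, 3 fell in wild type (Lamb1 -0.63 ± 0.13, Lamc1 -0.38 ± 0.09 and Lamb2 -0.66 ± 0.16) and 0 passed limma's test in knockout (6 with unadjusted p under 0.05), with medians of -0.29 in both. Over the 6 lists 2 of 61 genes rose and 15 fell in wild type, against 10.9% and 7.91% of all genes. In knockout 1 rose and 4 fell, against 6.45% and 1.78% of all genes. With slide as a block the counts were 1 and 9 in wild type (Lair1 up, and Colgalt2, P3h3, Fmod, Aspn, Tnxb, Gp6, Lamb1, Lamb2 and Lamc1 down) and 1 and 1 in knockout (Thbs2 and Aspn). The other calls of these lists were then lost, among them Thbs2 and Itga11 in wild type and Fmod and Gp6 in knockout. Between the genotypes 0 were called by limma. An unadjusted p under 0.05 was found for 12 after saline and 6 after OVA, against 3.26% and 5% of all genes.

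**Figure D4:**
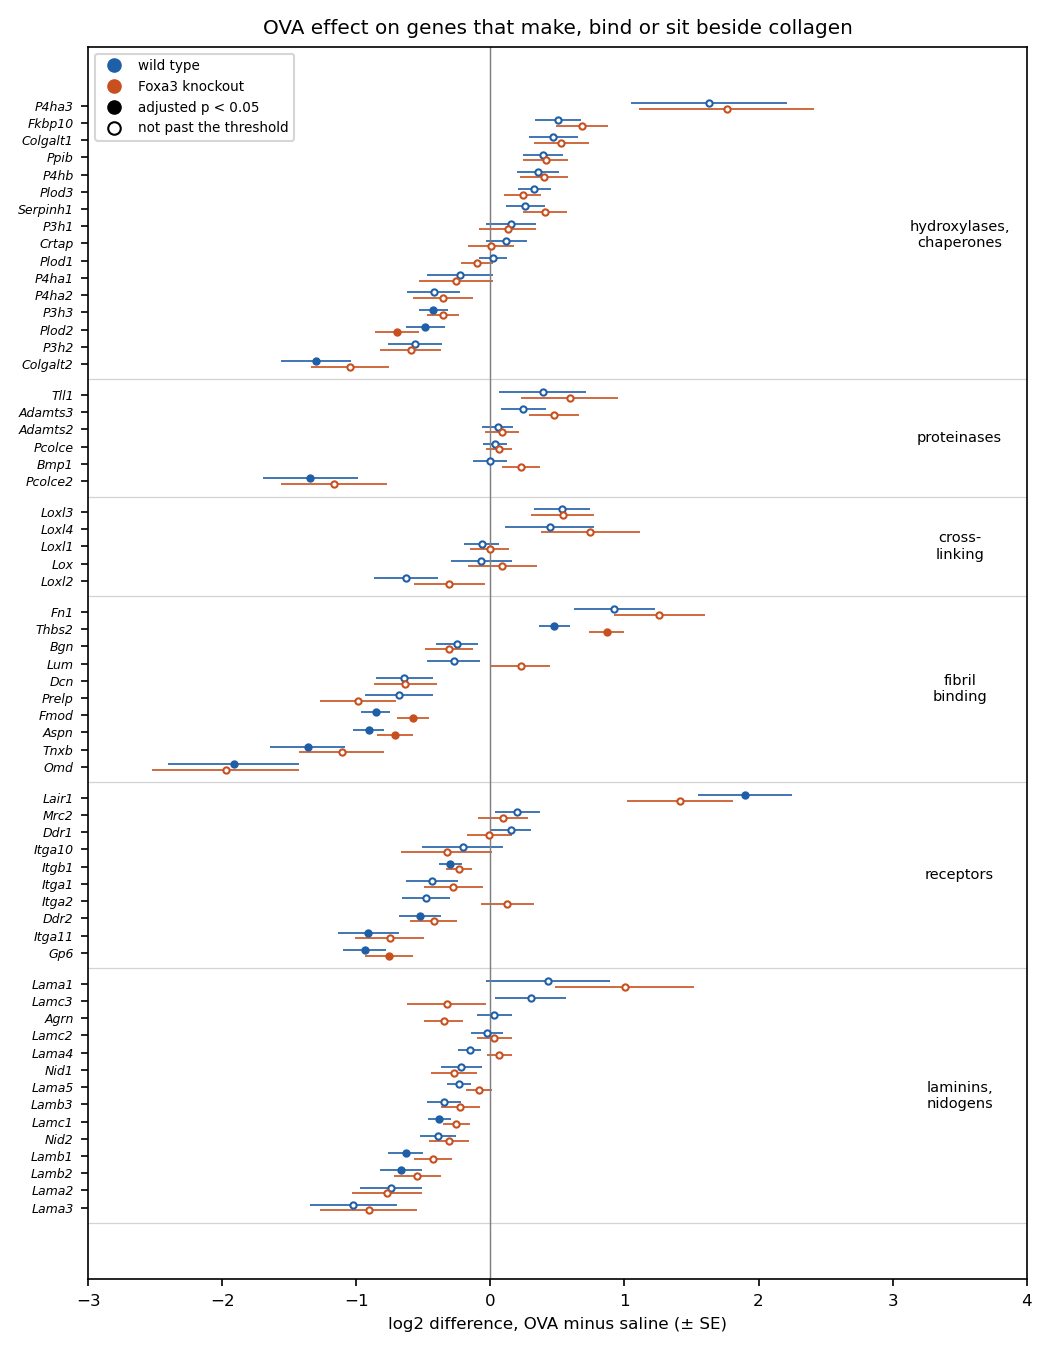
The plot gives the log2 difference between OVA and saline arrays (horizontal axis, bars of 1 standard error) for the genes that make, cut, cross-link, bind or neighbour collagen (vertical axis, 6 lists). Blue is wild type and orange Foxa3 knockout, with filled points for adjusted p under 0.05. Thbs2 and Lair1 are the filled points above 0, and the others lie below 0.

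Cell markers changed beside these genes. Of 10 leukocyte markers, 8 rose in wild type and 1 in knockout, against 10.9% and 6.45% of all genes. Their median difference was 0.93 and 0.72, and 8 and 7 of them had an unadjusted limma p under 0.05. Between the genotypes after OVA 0 of the 10 did. Their summed levels were 32.2 to 53.4 and 44.1 to 44.5 over saline arrays and 67.7 to 96.8 and 63.7 to 84.6 over OVA arrays. Of 13 fibroblast and mesenchyme markers, S100a4 rose in both genotypes (1.70 and 2.14), while Pdgfra (-0.82) and Npnt (-0.78) fell in wild type. The median difference of the 13 was -0.38 in wild type and -0.20 in knockout. The summed level of this list was 269 to 299 and 319 to 386 over saline arrays and 220.1 to 285 and 235 to 327 over OVA arrays of wild type and knockout. Of 10 smooth muscle and myofibroblast markers, Hhip rose (0.47, adjusted p = 0.0494) and Synpo2 fell (-0.60, adjusted p = 0.0345) in wild type, and Acta2 rose in knockout (0.47, adjusted p = 0.0441). With slide as a block S100a4 kept both calls, and Pdgfra (adjusted p = 0.0715), Npnt (0.0546), Hhip (0.0817), Synpo2 (0.0622) and Acta2 in knockout (0.089) lost theirs. The leukocyte calls were then 7 and 0. The summed smooth muscle level, over the 9 markers with a value on every array (Tagln lacked one on 2), was 77.9 to 81.3 and 64.0 to 67.0 over saline arrays and 80.3 to 88.0 and 76.3 to 86.6 over OVA arrays. The part of these cell types in the collagen values was not tested.

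Between the genotypes no collagen gene passed the test. After saline 0 of 38 were called (7 with unadjusted p under 0.05, all lower in knockout), against 0.096% of all genes called and 3.26% of them with unadjusted p under 0.05. The values nevertheless leaned one way: 10 of 11 fibrillar genes were lower in knockout, with a median of -0.38 that was -0.33 within slide 1 and -0.34 within slide 2, beside 0.019 for all genes. Both knockout saline arrays lay below all 3 wild-type saline arrays for 18 of 38 collagen genes and above them for 2, against 10.6% and 10.8% of all genes. Fibrillar genes made up 6 of the 18, basement membrane genes 5 and the others 7.

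Col15a1 had the lowest adjusted p of the collagen genes here, -0.67 ± 0.15 (95% interval -1.01 to -0.32, adjusted p = 0.471), at -0.69 and -0.70 within slides 1 and 2. Col3a1 differed by -0.52 ± 0.18 (-0.92 to -0.12) and Col1a1 by -0.25 ± 0.21 (-0.72 to 0.21). The fibrillar median with 1 array left out was between -0.43 and -0.26. Some marker lists were lower in the same 2 arrays, with medians of -0.82 for cardiac muscle, -0.90 for adipocyte, -0.21 for smooth muscle and -0.085 for cartilage. The medians lay above 0 for fibroblast (0.04), mesothelium (0.41), endothelium (0.073), alveolar epithelium (0.095) and leukocytes (0.080). No marker was called. An unadjusted limma p under 0.05 was found for 7 of 9 cardiac, 3 of 5 adipocyte and 2 of 10 smooth muscle markers, against 3.26% of all genes. It was found for 1 of 10 alveolar epithelial and 1 of 6 mesothelium markers, and for 0 of the fibroblast, endothelial, cartilage and leukocyte markers. The summed smooth muscle level given above was lower in both knockout saline arrays than in the wild-type ones. The summed cardiac level was 82.1 to 111 in wild-type and 52.8 to 64.7 in knockout saline arrays, and the summed adipocyte level, from 5 of 6 markers since Lep was not kept, 26.8 to 32.1 and 14.4 to 18.8. Their part in the collagen values was not tested.

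After OVA 0 of 38 collagen genes were called (3 with unadjusted p under 0.05), against 0.21% of all genes called and 5% of them with unadjusted p under 0.05. Both genotypes overlapped for all but 4 collagen genes, of which 2 lay above and 2 below in knockout, against 3.66% and 4.56% of all genes. The fibrillar median was -0.13, but its sign differed by slide, at 0.08 on slide 1, 0.20 on slide 2 and -0.62 on slide 3, where all 11 fibrillar genes were lower in the knockout array. Col1a1 differed by -0.06 ± 0.18 (95% interval -0.47 to 0.36) and Col3a1 by -0.11 ± 0.16 (-0.47 to 0.25). Col9a3 had the lowest adjusted p, -0.60 ± 0.10 (-0.82 to -0.37, adjusted p = 0.0714), and passed the threshold when only probes well above background on all arrays were tested (adjusted p = 0.0493) and with array weights (0.0343).

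The difference of the OVA effects between genotypes, which shares its arrays with the comparisons above, passed the test for 0 of 38 collagen genes and for 0.00457% of all genes. It had an unadjusted p under 0.05 for 5 collagen genes, against 2.59% of all genes. Those were Col9a3 (-0.66 ± 0.15) and, with larger values in knockout, Col14a1 (0.54 ± 0.15), Col15a1 (0.53 ± 0.20), Col16a1 and Col12a1, with adjusted p = 1 for each. For Col3a1 the difference of the effects was 0.41 ± 0.24 and for Col1a1 it was 0.20 ± 0.28, with 95% intervals of -0.13 to 0.94 and -0.43 to 0.82, both of which span 0.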

How the data were processed

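Per the file headers, the deposited scanner files hold spot intensity after background subtraction by Agilent Feature Extraction 9.5.1.1 (9.1 in the submitters' processing notes), with raw spot and local background intensity. The deposited value table holds log2 values with column medians of 7.67, whose ranks follow the raw signal. The method behind it is not given in the sources used here, so its scaling step stays unknown. Control and outlier spots were left out, spots of a probe averaged, and the 75th percentile of log2 intensity subtracted on each array. A probe had to pass the background flag on 2 or more of the 11 arrays, and the brightest probe (highest mean) stands for a gene. Names were updated through a RefSeq GRCm38.p6 table: 22951 probes matched by accession, 6659 by symbol, 3109 by synonym, and 8455 kept the file's name. 124 genes lacked a value on some array, and no collagen gene did.

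One limma model (3.58.1, R 4.3.3) with a mean per group was fitted over all 11 arrays (eBayes: residual degrees of freedom 7, prior 1.95). It was also run on simulated data without a slide effect, a run that cannot show how the model fares with slides that differ. Per-array values are given for the 14 called collagen genes of smallest p and for Col1a1, Col1a2, Col3a1, Col4a1, Col4a2, Col4a3 and Col6a1; lists name up to 3 called genes of smallest p. Genes named beyond these rules were chosen after their values were seen. The collagen genes, classes and lists were chosen with earlier results of these data known. The number of arrays limits the precision. Alternatives were other background, scaling, filter, probe, prior and weight settings, slide and replicate blocks, the authors' table, and left-out arrays. Same-numbered arrays of different groups did not deviate together (correlation of deviations from -0.41 to 0.34, over 0.1 in 4 of 15 pairs), so replicate numbers were not taken to pair samples. Most of these pairs lay on different slides, so the check cannot exclude pairing by number. Arrays of 1 slide did deviate together (median correlation 0.27, against -0.16 for different slides), and the second principal component (15.8% of variance) set slide 1 apart. Deviations sum to 0 within a group, so part of the negative value is forced. The model has no slide term, so values with slide as a block stand beside the collagen calls they change. For the pathway and marker lists, counts with that block are given, with values for some genes only.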

Additional observations from a re-analysis of the deposited data

How the results depend on the processing

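No called collagen gene changed sign under any setting run. The 13 calls for OVA in wild type became 8 with only the groups compared, 23 with array weights and 0 without slide 1, and 3 to 19 with 1 array left out: 7, 3 and 6 without wild-type saline 1, 2 or 3, 19, 5 and 4 without wild-type OVA 1, 2 or 3, and 11 to 14 otherwise. The 13 for OVA in knockout became 2, 17 and 0 under the same settings and 6 with a slide block. They ran from 0 to 19 with 1 array left out: 0 and 5 without knockout saline 1 or 2, 5, 19 and 4 without knockout OVA 1, 2 or 3, 8 without wild-type saline 2 or 3, and 9 to 16 otherwise. Collagen genes called in all 11 fits with 1 array left out were Col1a1, Col3a1 and Col22a1 in wild type and none in knockout, where Col3a1, Col14a1, Col15a1 and Col22a1 were called in 10, failing without knockout saline 1. Without either knockout saline array that group has 1 array, which is assumed to vary like the other groups. Knockout against wild type after OVA gave 1 call (Col9a3) with the filter on all arrays and with array weights, and the other genotype comparisons gave 0 throughout.

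The fibrillar median for OVA in wild type was 0.57 with quantile scaling and 0.53 in the authors' table (0.63 to 0.80 with 1 array left out), and in knockout 0.92 with the mean of a gene's probes (0.64 to 0.97). The median of the other types was 0.11 in wild type with normexp and 0.11 with array weights (-0.23 to 0.01), and in knockout -0.11 with normexp, -0.079 with either stricter filter and 0.089 without slide 1 (-0.16 to 0.053). Between genotypes after saline, the fibrillar median was -0.28 with array weights (-0.43 to -0.26), the basement membrane median -0.16 with normexp and -0.17 in the authors' table (-0.16 to -0.054), and the median of the other types reversed to 0.07 with normexp (-0.20 to -0.049). The cause was not tested. Basement membrane medians for OVA ran from -0.25 to -0.08 in wild type and from -0.29 to -0.14 in knockout with 1 array left out, and those after OVA between genotypes from -0.15 to 0.08, with -0.24 to 0.01 for fibrillar and -0.03 to 0.09 for other types. Normexp moved the median of all genes to 0.12 and the unfiltered fit to 0.11 for OVA in wild type. In the authors' table the counts of all genes risen and fallen there were 2409 and 2675, against 2380 and 1729.

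With the replicate number as a block, 10 collagen genes were called for OVA in wild type and 5 in knockout, and the basement membrane median between genotypes after saline was -0.14. The block cost residual degrees of freedom, and arrays share only a number.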

Other observations

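Outside the naming rule, 4 collagen probes stand in the array's annotation under other names, and 2 of them were well above background. The probe named 1110001D15Rik, now Col6a4, a further type VI chain, rose by 1.08 ± 0.18 in knockout (limma adjusted p = 0.0101) and differed by 0.52 ± 0.16 in wild type (adjusted p = 0.0528), and after saline it differed between knockout and wild type by -0.63 (adjusted p = 0.926). The probe named Emid2, now Col26a1, differed by -0.26 ± 0.21 and -0.28 ± 0.24 and passed neither test (adjusted p = 0.421 and 0.467). Probes named E330026B02Rik (Col6a6) and C530001D20Rik (Col11a1) were well above background on 0 arrays.

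By their brightest probes, some pairs of collagen genes with no coding gene between them in RefSeq gave OVA differences of like size. In wild type and then knockout these were Col3a1 and Col5a2 (1.11 and 1.03, 1.52 and 1.21) and Col4a3 and Col4a4 (-1.03 and -0.96, -1.13 and -0.89). They were also Col4a1 and Col4a2 (-0.11 and -0.17, -0.11 and -0.22) and Col4a5 and Col4a6 (-0.56 and -0.50, -0.65 and -0.42). The likeness depended on the probe. The second kept probe of Col4a4 gave -0.15 and -0.39, against -1.07 and -1.32 for that of Col4a3. The other kept probes of Col4a6 gave -0.04 and -0.09, and -0.59 and -0.60. Col6a1 and Col6a2 were less alike, at 0.27 and 0.65 in wild type and 0.43 and 1.19 in knockout. Col9a1 and Col19a1, also neighbours, were too near background to compare. The likeness of neighbours was not tested.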
